A study of Mus musculus with 59 samples.

Results

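The enzymes that build cholesterol and fatty acids, together with the proteins that switch their genes on and off, were followed on arrays of mouse brain RNA after prenatal exposure to valproic acid. The set was defined by name and held 34 genes. A probe set that the platform annotation assigns to that gene alone was found for 33 of them, of 18194 genes represented in this way, and Acat2 was the exception. The probe set with the highest mean signal stood for each gene. The 33 genes had 77 probe sets in all, 24 had more than 1, and all 33 passed the filter on low signals in every comparison.

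All animals were C57BL/6 mice whose dams had been dosed by mouth once a day on embryonic days E12.5, E13.5 and E14.5, so every group, controls included, had been through the same 3 doses of a suspension. The dams received 0.5% methylcellulose alone (MC, the vehicle), valproic acid at 300 mg/kg in it (VPA, an antiepileptic and mood-stabilising drug), or valpromide at 300 mg/kg in it (VPM). Valpromide is the amide of valproic acid, in which the carboxylic acid group of VPA is replaced by a carboxamide. MC, VPA and VPM offspring were taken as E14.5 telencephalon, 3 h after the last dose, and as E18.5 hippocampus and E18.5 forebrain. Adult male hippocampus and cortex at 12 to 13 weeks came from MC and VPA offspring caged with or without a running wheel (RW) after weaning, and a separate set of male hippocampus at postnatal day 84 (P84) came from MC and VPA offspring. This gave 59 arrays in 19 groups, of 4 arrays each at P84 and 3 in the other groups. The sex of the embryos was not stated in the labels. The labels call the arrays of a group biological replicates without naming dams or litters, so the p-values measure only the spread between these samples, which may include littermates, and the small number of arrays limits their precision.

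Cholesterol does not cross the blood-brain barrier in useful amounts, so the brain makes its own. Acetyl-CoA is turned into mevalonate, then into farnesyl diphosphate, squalene and lanosterol, and the last steps reshape the sterol ring into cholesterol; fatty acids are built from the same acetyl-CoA, lengthened by elongases and given double bonds by desaturases. When sterols run low, the Srebf transcription factors are escorted by Scap out of the endoplasmic reticulum and activate nearly all of these genes at once, while the Insig proteins hold Scap back when sterols are plentiful. VPA inhibits histone deacetylases in cells, and its amide is widely used as a comparison compound that lacks most of that activity.

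Signals below are linear intensities brought to a common scale, with the trimmed mean of every array set at 500. A difference is a difference of mean log2 signals, a gene is called when limma's adjusted p, over all genes tested in the comparison, was under 0.05, and intervals are 95% intervals. Before scaling, the trimmed means of the arrays ran from 197.6 to 419.4, and 18.2% to 38.0% of probe sets lay under the floor of 32. Arrays of a group correlated at 0.972 to 0.994 over all probe sets, and no 2 arrays held identical values. In 6 of the 6 E18.5 groups replicate 3 had the lowest trimmed mean before scaling, at 207.4 to 269.9 where replicates 1 and 2 had 270.1 to 344, and Hmgcs1 read highest in replicate 3 of all 6, the only member to do so. Results at E18.5 are therefore also given without these arrays, an alternative added after seeing the data. Neuronal markers were measured for 7 of 7 listed genes in every group, and none was under the floor throughout any group. In these bulk tissues, fewer cells of a type and less RNA per cell cannot be told apart.

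At E14.5, 3 h after the third dose, much of the sterol pathway was higher in VPA than in MC telencephalon. Of the 33 genes, 15 rose and 3 fell, where 53.8% of all genes tested were called, 27% higher and 26.8% lower. The share of the 33 that was called, 54.5%, was thus close to the background, and the rises made up 45.5% of the set and the falls 9.09%. Their median difference was 0.11, beside -0.003 over all genes tested. Among the 17 enzymes from mevalonate to cholesterol, 9 rose, none fell, and the median was 0.18. The groups did not overlap for 21 of the 33 genes, where 60.2% of all genes tested did not overlap.

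**Figure D1:**
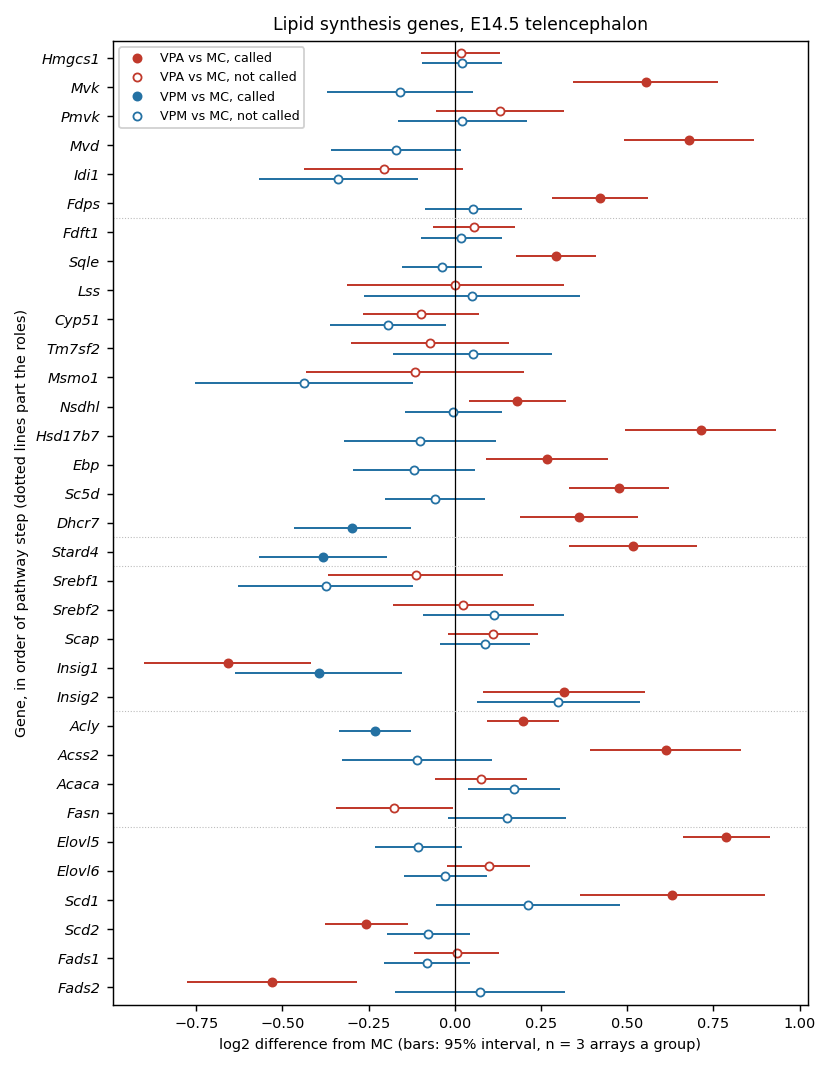
Difference in mean log2 signal from vehicle (x axis) for each of the 33 genes (y axis) in E14.5 telencephalon, for VPA (red) and VPM (blue), 3 arrays a group, against the same 3 vehicle arrays. Bars are 95% intervals and filled points are called at an adjusted p under 0.05. Elovl5 lies highest for VPA at 0.79 and Insig1 lowest at -0.66, and the 4 genes called for VPM all lie below 0.

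Of the 6 genes from mevalonate to farnesyl diphosphate, 3 rose. Mvd, which decarboxylates mevalonate diphosphate to isopentenyl diphosphate, read 584, 530.1 and 590.2 in the MC arrays and 902, 989 and 839 in the VPA arrays. All VPA arrays lay above all MC arrays, and the difference was 0.68 (95% interval 0.49 to 0.87, adjusted p = 4.83e-05). Fdps, which makes farnesyl diphosphate, read 5768, 6025 and 6111 in MC and 7318, 8526 and 8166 in VPA, again without overlap, a difference of 0.42 (95% interval 0.28 to 0.56, adjusted p = 0.000184). Mvk, mevalonate kinase, read 656, 536 and 569 in MC and 909.9, 901 and 770.4 in VPA. Its difference was 0.55 (adjusted p = 0.000487), but the gene's other probe set gave -0.01, so the rise rests on 1 probe set. Hmgcs1, the synthase that makes HMG-CoA at the entry to the pathway, differed by 0.02 (adjusted p = 0.81), and Idi1, which isomerises isopentenyl diphosphate, by -0.21 (adjusted p = 0.119). Neither was called.

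The 11 enzymes from squalene onward had 6 that rose and none that fell. Hsd17b7, a ketoreductase of sterol demethylation, read 375, 426 and 382 in MC and 680.3, 629 and 629 in VPA. The groups lay far apart, with a difference of 0.71 (95% interval 0.49 to 0.93, adjusted p = 0.000104). Sqle, squalene epoxidase, read 5102, 4729 and 5019 in MC and 5990.2, 6074 and 6117 in VPA, a smaller difference of 0.29 (adjusted p = 0.000641) whose groups did not overlap. The last enzymes of the pathway rose as well. Sc5d, the sterol desaturase, read 1032, 1177 and 1134 in MC and 1538, 1535 and 1568 in VPA, a difference of 0.48 (adjusted p = 9.89e-05). Dhcr7, the 7-dehydrocholesterol reductase whose loss causes Smith-Lemli-Opitz syndrome in people, read 1204, 1147 and 1193 in MC and 1640.5, 1559 and 1362 in VPA, a difference of 0.36 (adjusted p = 0.00209). Both genes had every VPA array above every MC array. Ebp, the sterol isomerase, rose by 0.27 (adjusted p = 0.015) and Nsdhl, the decarboxylating sterol dehydrogenase, by 0.18 (adjusted p = 0.0323). Both of these calls depended on single arrays: the adjusted p of Ebp passed 0.05 without MC replicate 2 or VPA replicate 1 (at most 0.0538), and that of Nsdhl without any 1 of the MC arrays or VPA replicate 3 (at most 0.139). Lss, which closes the ring to lanosterol, was at 0.00 (adjusted p = 0.991), and Msmo1, the sterol methyl oxidase, at -0.12 (adjusted p = 0.525).

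The promoters of these genes are shown for genes that rose, fell or were not called, and because CCAAT, the box bound by NF-Y, lies beside Srebf sites in textbook sterol promoters. The RefSeq promoter table (build GRCm38.p6) held entries for 26 of the 33 measured genes, among them 14 sterol enzymes, and the counts below are over these. It also held Acat2, which was not measured and whose window has CACNCCAC at 2 places and no CCAAT. The 250 bases before the start are given 5′ to 3′ on the gene's strand, with CCAAT, or ATTGG where the box lies on the other strand, in capitals. Mvk (chr5:114444019-114444268, plus strand), Mvd (chr8:122443423-122443672, minus strand) and Hsd17b7 (chr1:169969206-169969455, minus strand) rose with VPA, as did the elongase gene Elovl5 (chr9:77917115-77917364, plus strand). Idi1 (chr13:8885356-8885605, plus strand) and Hmgcs1 (chr13:119690101-119690350, plus strand) were not called, and Insig1 (chr5:28071162-28071411, plus strand) fell.
Mvk: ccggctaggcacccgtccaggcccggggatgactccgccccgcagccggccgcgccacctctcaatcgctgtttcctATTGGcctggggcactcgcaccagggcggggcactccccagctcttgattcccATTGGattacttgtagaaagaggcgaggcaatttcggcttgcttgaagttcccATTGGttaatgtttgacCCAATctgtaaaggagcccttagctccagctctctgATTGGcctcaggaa
Mvd: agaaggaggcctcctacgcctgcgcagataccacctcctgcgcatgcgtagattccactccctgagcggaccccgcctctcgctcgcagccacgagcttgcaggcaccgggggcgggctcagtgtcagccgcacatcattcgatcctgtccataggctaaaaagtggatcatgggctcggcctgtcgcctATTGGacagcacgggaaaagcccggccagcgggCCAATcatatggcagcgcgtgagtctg
Hsd17b7: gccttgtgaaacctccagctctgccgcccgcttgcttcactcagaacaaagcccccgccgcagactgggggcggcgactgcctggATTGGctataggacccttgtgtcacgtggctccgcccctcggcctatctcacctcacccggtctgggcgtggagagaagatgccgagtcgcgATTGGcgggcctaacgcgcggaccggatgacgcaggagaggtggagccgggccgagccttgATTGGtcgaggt
Elovl5: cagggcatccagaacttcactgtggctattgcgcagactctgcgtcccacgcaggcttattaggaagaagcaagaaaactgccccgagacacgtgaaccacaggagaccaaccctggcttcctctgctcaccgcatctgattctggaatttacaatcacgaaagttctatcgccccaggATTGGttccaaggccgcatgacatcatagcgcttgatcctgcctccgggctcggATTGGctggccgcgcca
Idi1: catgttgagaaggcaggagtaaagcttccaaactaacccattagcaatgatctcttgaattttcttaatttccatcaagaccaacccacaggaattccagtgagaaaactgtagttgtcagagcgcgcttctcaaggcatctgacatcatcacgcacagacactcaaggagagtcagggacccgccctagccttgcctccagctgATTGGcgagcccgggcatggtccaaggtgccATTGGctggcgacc
Hmgcs1: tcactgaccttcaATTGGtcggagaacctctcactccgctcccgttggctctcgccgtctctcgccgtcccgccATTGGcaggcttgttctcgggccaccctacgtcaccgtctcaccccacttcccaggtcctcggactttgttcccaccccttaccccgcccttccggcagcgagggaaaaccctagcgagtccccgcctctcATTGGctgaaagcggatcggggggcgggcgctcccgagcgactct
Insig1: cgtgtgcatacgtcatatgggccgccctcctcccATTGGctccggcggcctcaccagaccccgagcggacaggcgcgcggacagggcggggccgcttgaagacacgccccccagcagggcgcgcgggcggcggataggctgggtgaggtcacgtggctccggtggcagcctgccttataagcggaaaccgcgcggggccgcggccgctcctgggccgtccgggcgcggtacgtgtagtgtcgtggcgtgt
Mvk held 5 CCAAT boxes, Hsd17b7 and Hmgcs1 3 each, Mvd, Elovl5 and Idi1 2 each, and Insig1 1. With both strands searched, the box stood in 33.85% of all 32851 promoters of this length and in 22 of the 34 promoters of the set (64.71%). By gene that was 21 of 26, and 14 of the 14 sterol enzymes, 9 of which held 2 or more, as did 10.09% of all promoters. A gene can have several promoters in the table, so counts by gene are not on the scale of the shares of promoters. GGGCGG, the GC box of Sp1, was in 32.74% of all promoters and in 21 of the 26 genes, and the E-box CACGTG in 6.021% and in 6. TCACNCCAC, the core of the sterol response element, was in 1.053% of all promoters and, of the 26 genes, only in Hmgcs1. Its shorter form CACNCCAC, which contains it, was in 5.288% and in Hmgcs1 and Insig1. These are matches of letters in a fixed window and not measured binding sites. All the promoters printed above hold CCAAT, in genes that rose, that fell and that were not called. The windows of Acly, which rose, of Fads2, which fell, and of Acaca, Elovl6 and Scap, which were not called, hold none.

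Among the regulators, the Insig genes moved in opposite directions. Insig1, itself a Srebf target, read 952, 1083 and 1049 in MC and 719, 613 and 624 in VPA. Every VPA array lay below every MC array, and the gene fell, with a difference of -0.66 (95% interval -0.90 to -0.42, adjusted p = 0.000375). Insig2, which holds Scap back without being a strong Srebf target, read 810.4, 879.9 and 927 in MC and 1225, 1009.6 and 1034 in VPA and rose by 0.32 (adjusted p = 0.0264), a call lost without MC replicate 1 or VPA replicate 1 (adjusted p at most 0.11). Srebf1, Srebf2 and Scap were not called, at -0.11 (adjusted p = 0.435), 0.02 (adjusted p = 0.841) and 0.11 (adjusted p = 0.14). Stard4, which carries cholesterol between membranes inside the cell, read 870.0, 797 and 819.9 in MC and 1126, 1195 and 1235 in VPA and rose by 0.52 (adjusted p = 0.000331).

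The fatty acid genes were split. Both enzymes that make cytosolic acetyl-CoA were called higher, Acly less firmly, and those that extend it to palmitate did not pass the test. Acss2, which makes acetyl-CoA from acetate, read 570.4, 524 and 513 in MC and 907, 702 and 858 in VPA, a difference of 0.61 (adjusted p = 0.000307). Acly, which makes it from citrate, read 7859, 8032 and 8100.4 in MC and 9162, 9104 and 9236 in VPA, a difference of 0.20 (adjusted p = 0.00428) whose groups did not overlap. The call of Acly was lost with its second probe set, which gave 0.11, with the mean over its probe sets and in the values as deposited (adjusted p at most 0.198). Those of Ebp, Nsdhl, Insig2 and Scd2 were lost as deposited too. Acaca, acetyl-CoA carboxylase, was at 0.08 (adjusted p = 0.326) and Fasn, fatty acid synthase, at -0.18 (adjusted p = 0.0764).

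Of the 6 elongases and desaturases, 2 rose and 2 fell. Elovl5, which lengthens polyunsaturated fatty acids, read 3303, 3198 and 3340.1 in MC and 5749.9, 5302 and 5945 in VPA. It had the smallest adjusted p of the set, at 0.79 (95% interval 0.66 to 0.91, adjusted p = 1.06e-06), and its other probe set gave 1.09. Scd1, a stearoyl-CoA desaturase, read 630.0, 485 and 489 in MC and 880.0, 886 and 711 in VPA, a difference of 0.63 (adjusted p = 0.00103). Its brain paralog Scd2 moved the other way, from 12471, 12665 and 12928 in MC to 11001, 9912 and 10979.7 in VPA, a difference of -0.26 (adjusted p = 0.00197). Fads2, the delta-6 desaturase, fell from 2567, 3095 and 2862 to 1811, 1860.2 and 2237, a difference of -0.53 (adjusted p = 0.00188). The groups did not overlap for any of these 4 genes.

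Outside the set, 16 of 20 listed genes of other lipid synthesis were tested, and 6 rose and 2 fell. Mbtps1, the site-1 protease that releases the Srebf proteins, fell by 0.57 on the log2 scale (adjusted p = 1.35e-05), and Me1, malic enzyme, fell by 0.60 (adjusted p = 9.35e-05). Hacd2, a dehydratase of the elongation cycle, rose by 0.64 (adjusted p = 8.8e-05). Of 12 listed genes of sterol turnover and of the liver X receptors (LXR), 8 were tested, and 3 rose and 1 fell. Mylip, an LXR target that degrades lipoprotein receptors, rose by 0.90 (adjusted p = 0.000278).

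Markers of several cell types differed between the same arrays. The summed signal of the 7 of 7 neural progenitor markers measured was 37567 to 38236 in MC and 32397 to 33010 in VPA, and that of 5 of 5 pallial markers 17560 to 18814 and 11672 to 12870. The 7 astrocyte markers summed to 9226 to 10072 and 7016 to 7832, the 5 endothelial markers to 1907 to 2146 and 1418 to 1529, and 4 of 6 red cell markers to 10812 to 12770 and 6437 to 9861. The 7 neuronal markers summed to 42211 to 43623 in MC and 41388 to 42276 in VPA. The 10 of 11 myelin markers measured summed higher in VPA, at 1160 to 1336 beside 787 to 971 in MC. In each group 4 of them lay under the floor throughout. The part of these shifts in the differences above was not tested.

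**Figure D2:**
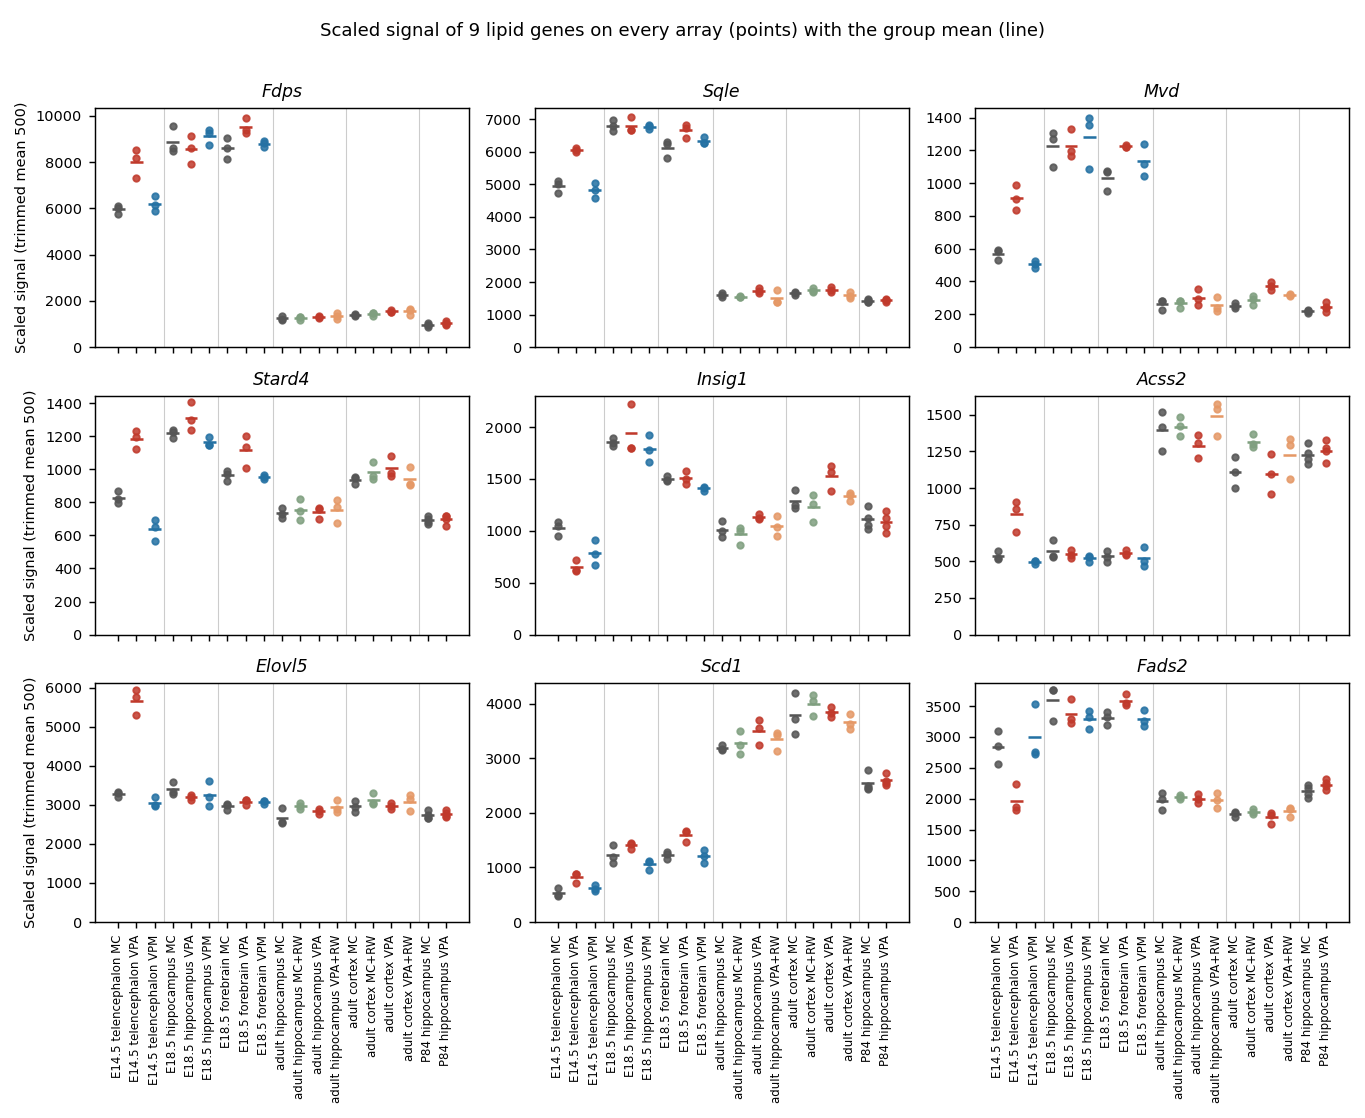
Scaled signal (y axis, linear intensity) of 9 genes in every array, over the 19 groups (x axis), with a line at each group's mean; MC grey, VPA red, VPM blue, MC with running wheel green, VPA with running wheel orange. Fdps, Sqle and Mvd lie far lower in the adult groups than at E18.5, Acss2 and Scd1 lie higher there, and Elovl5 is highest in the E14.5 VPA arrays.

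With valpromide, the same tissue at the same dose and time showed 4 called genes of the 33, all lower than in MC. In this comparison 11.6% of all genes tested were called, 5.65% higher and 5.91% lower, and the median of the 33 was -0.06. The MC arrays are those that VPA was compared with. Stard4 read 695, 568 and 649.6 in the VPM arrays, below every MC array, and fell by 0.38 on the log2 scale (adjusted p = 0.015). Dhcr7 read 943, 926 and 1018 and differed from MC by -0.30 (adjusted p = 0.0302), and Acly read 6831, 6509 and 7111 and differed by -0.23 (adjusted p = 0.011). Both lay below MC in every array. Insig1 read 779, 909.9 and 671, also below every MC array, and differed by -0.39 (adjusted p = 0.0396). Insig2 read 1006, 976 and 1257 and differed by 0.30 (adjusted p = 0.0964), which was not called, and neither were Msmo1 at -0.44 (adjusted p = 0.0745) or Idi1 at -0.34 (adjusted p = 0.0604). In the values as deposited all 4 calls were lost, with adjusted p of 0.079 for Stard4, 0.0898 for Insig1, 0.116 for Dhcr7 and 0.165 for Acly. That of Acly was also lost with the mean over its probe sets (adjusted p = 0.33), though it held without each array. The call of Stard4 was lost without MC replicate 1 (adjusted p = 0.0523), that of Insig1 without MC replicate 2 or 3 or VPM replicate 1 or 3 (at most 0.143), and that of Dhcr7 without any array but VPM replicate 3 (at most 0.0886). Without MC replicate 1 or 3, 2 of the 33 genes were called. VPM replicate 3 had a summed choroid plexus signal of 20324, where the other E14.5 arrays had at most 452, and 3 genes were called without it. The red cell markers summed to 2438 to 3047 in VPM, the neuronal markers to 50260 to 53039, the progenitor markers to 29772 to 32082 and the 5 oligodendrocyte precursor markers to 1243 to 1618, beside 590 to 983 in MC. Their part was not tested. Of the other genes, Elovl1, which elongates saturated fatty acids, was lower at -0.41 (adjusted p = 0.0455), and Abcg4, a sterol exporter, higher at 0.35 (adjusted p = 0.0362).

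Set directly against each other, the acid and its amide differed at 17 of the 33 genes, with 14 higher and 3 lower in VPA, where 54.5% of all genes tested differed, 27.5% higher and 27% lower. This was 1 pair of compounds at 1 dose and time, and p-values were adjusted over all genes tested. The arrays of the 2 groups did not overlap for 18 of the 33 genes, beside 60.7% of all genes tested. Among the 17 sterol enzymes 9 were higher with VPA, none was lower, and the median was 0.32. Stard4 showed 0.90 (95% interval 0.71 to 1.08, adjusted p = 4.91e-06), with every VPA array above MC and every VPM array below it. Elovl5 showed 0.89 (95% interval 0.77 to 1.02, adjusted p = 4.25e-07), from VPM values of 3189.9, 2987 and 2969. Mvd, at 526, 506 and 481 in VPM, differed by 0.85 (adjusted p = 8.24e-06). Hsd17b7 differed by 0.81 (adjusted p = 3.57e-05), Acss2 by 0.72 (adjusted p = 8.6e-05) and Dhcr7 by 0.66 (adjusted p = 2.66e-05). The other genes higher in VPA were Mvk, Sc5d, Acly, Scd1, Ebp, Fdps, Sqle and Nsdhl, by 0.19 for Nsdhl to 0.71 for Mvk, whose other probe set gave -0.0004 (adjusted p = 0.998). The genes lower in VPA were Fads2, from 2718, 2749 and 3542 in VPM, at -0.60 (adjusted p = 0.00076), Fasn, from 3420.4, 3475 and 4053, at -0.33 (adjusted p = 0.0038), and Scd2 at -0.18 (adjusted p = 0.0155). The calls of Nsdhl, Scd1 and Scd2 were each lost when 1 array was left out (without VPA replicate 3 or VPM replicate 1 or 2 for Nsdhl, without VPM replicate 3 for Scd1, and without VPA replicate 2 or VPM replicate 1 or 3 for Scd2; adjusted p at most 0.125, 0.0503 and 0.0609).

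The remaining 16 genes did not differ beyond the threshold between the compounds. The interval of the difference was -0.12 to 0.11 for Hmgcs1, -0.22 to 0.25 for Insig2, -0.36 to 0.27 for Lss and -0.51 to -0.02 for Insig1 (adjusted p = 0.0617). Those for Insig2, Lss and Insig1 leave room for differences as large as some that were called. Of the other lipid genes, Mbtps1 was lower in VPA than in VPM, at -0.53 (adjusted p = 1.91e-05), as was Me1 at -0.64 (adjusted p = 5.17e-05), and Hacd2 was higher, at 0.72 (adjusted p = 3.38e-05).

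At E18.5, 4 days after the last dose, the forebrain of VPA offspring showed 2 called genes of the 33, both higher than in MC, where 2.16% of all genes tested were called, 1.09% higher and 1.06% lower. Scd1 read 1239, 1277 and 1163 in MC and 1659, 1464 and 1654 in VPA, a difference of 0.38 (95% interval 0.20 to 0.55, adjusted p = 0.036). Its other probe set gave a smaller difference, 0.18. Msmo1 read 3039, 2871 and 3006 in MC and 3422, 3446 and 3324 in VPA, a difference of 0.19 (95% interval 0.10 to 0.28, adjusted p = 0.0371). The groups did not overlap for either gene. Neither call is firm: no member was called when the deposited values were left unscaled or without the replicates 3, and 0 or 1 was called as any 1 of the 6 arrays was left out (adjusted p at most 0.141 for Scd1, which held only without VPA replicate 2, and 0.145 for Msmo1). The differences of the set leaned one way, above 0 for 29 of the 33 genes and for 16 of the 17 sterol enzymes, whose median was 0.15. Mvd read 1070.2, 950.5 and 1072 in MC and 1234, 1219.5 and 1222 in VPA, which do not overlap, and its difference of 0.25 (adjusted p = 0.104) was not called. The groups did not overlap for 20 of the 33 genes, beside 22.3% of all genes tested.

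Markers of other cells moved in the same forebrain arrays. The 7 choroid plexus markers summed to 17848 to 25545 in MC and 541 to 4899 in VPA, the 7 progenitor markers to 15976 to 17304 and 13190 to 14586, and the 5 oligodendrocyte precursor markers to 4552 to 5187 and 6049 to 6457. Their part in the differences of the lipid genes was not tested. In VPM forebrain, limma called none of the 33 genes against MC (0% of all genes tested), and 5 had an unadjusted p under 0.05. The choroid plexus markers there summed to 20231 to 24109. Scd1 read 1216, 1076 and 1323 and Msmo1 3230.1, 3215 and 3247 in VPM. Between VPA and VPM forebrain limma called none of the 33 (0.53% of all genes tested), 11 had an unadjusted p under 0.05, all higher in VPA, and 29 of 33 differences were above 0. The smallest adjusted p was that of Scd1, 0.0526, at a difference of 0.40 (95% interval 0.23 to 0.58).

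In E18.5 hippocampus limma called none of the 33 genes for VPA against MC (0% of all genes tested), for VPM against MC (0.00867%) or for VPA against VPM (0%). The unadjusted p was under 0.05 for 3, 7 and 7 genes, and none was called without the replicates 3 either. The 7 choroid plexus markers varied widely within groups, summing to 1719 to 29629 in MC, 22604 to 26960 in VPA and 1103 to 27121 in VPM. The 7 progenitor markers summed to 20557 to 22503 in MC and 16451 to 18534 in VPA. Their part was not tested. The median half-width of the 95% intervals was 0.15 for VPA against MC, less than the differences of Mvd or Elovl5 at E14.5. The intervals are not adjusted for the number of genes tested, so this does not show that such differences would have been called. As scaled, 13 of the 33 genes lay above 0, and in the values as deposited 32 did, where all genes moved by 0.16 and had a median of 0.15, beside 0.13 for the set.

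The effect of VPA at E18.5 in forebrain was also compared directly with its effect at E14.5 in telencephalon, in 1 fit over both ages. Age, tissue, time since the last dose and any difference in how the arrays were prepared cannot be told apart in this comparison. The effect differed for 15 of the 33 genes, where 39.1% of all genes tested differed. For 10 genes it was lower at E18.5, and these were Elovl5 at -0.73 (adjusted p = 3.41e-07), Acss2 at -0.55 (adjusted p = 0.00483), Insig2 at -0.47 (adjusted p = 0.00935), Mvd at -0.43 (adjusted p = 0.00486), Hsd17b7 at -0.43 (adjusted p = 0.0224), and Mvk, Stard4, Fdps, Dhcr7 and Acly at -0.36 to -0.18. For 5 genes it was higher, at 0.67 (adjusted p = 0.00037) for Insig1, 0.65 (adjusted p = 0.000813) for Fads2, 0.42 (adjusted p = 0.0161) for Idi1, 0.29 (adjusted p = 0.0194) for Fasn and 0.25 (adjusted p = 0.0197) for Scd2. In the values as deposited, 1 of the 15 calls was left, that of Elovl5, and without the E18.5 replicates 3 the effect differed for 10 genes, lower for 5 and higher for 5. The calls of Elovl5, Acss2, Insig2, Mvd, Fdps, Insig1, Fads2 and Idi1 held without each of the 12 arrays. Those of Stard4, Mvk, Hsd17b7, Dhcr7 and Acly were lost without any 1 of 4 to 9 arrays, that of Fasn without E14.5 VPA replicate 1 (adjusted p = 0.0568), and that of Scd2 without E14.5 VPA replicate 2 or E18.5 MC replicate 1 (at most 0.0544).

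**Figure D3:**
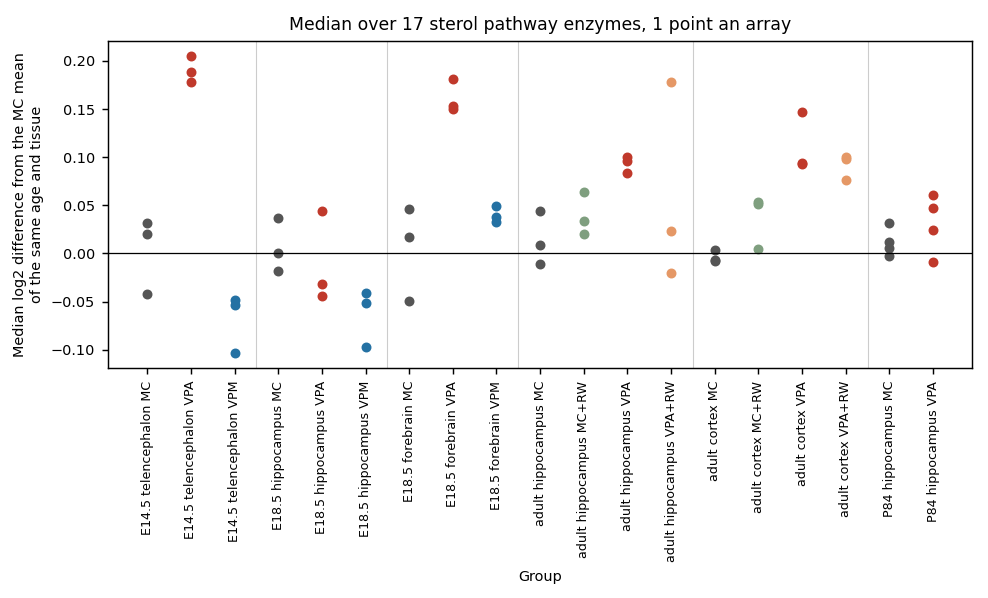
Median over the 17 sterol enzymes of the log2 difference from the mean of the vehicle arrays of the same age and tissue (y axis), 1 point an array, by group (x axis). The E14.5 VPA arrays lie at 0.18 to 0.21 and the E18.5 forebrain VPA arrays at 0.15 to 0.18. The E18.5 hippocampus VPA arrays lie at -0.04 to 0.04 and the E14.5 VPM arrays at -0.10 to -0.05. Without a running wheel, the adult VPA arrays lie at 0.08 to 0.10 in hippocampus and 0.09 to 0.15 in cortex, and the P84 VPA arrays at -0.01 to 0.06.

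In adult offspring, limma called none of the 33 genes for VPA against MC in hippocampus (0% of all genes tested), in cortex (0.00735%) or in P84 hippocampus (0%). The unadjusted p was under 0.05 for 5, 6 and 0 genes. Mvd in cortex came nearest, with 248, 237 and 268 in MC and 349.6, 372 and 394 in VPA. The groups did not overlap, and the difference was 0.57 (95% interval 0.34 to 0.79, adjusted p = 0.12), which was not called. Differences were above 0 for 26 genes in hippocampus, 24 in cortex and 23 at P84, and in the values as deposited for 21, 15 and 0. There the median of all genes moved by -0.05, -0.10 and -0.18, to -0.06, -0.10 and -0.18, and that of the set was 0.04, -0.01 and -0.16. The median half-widths of the 95% intervals were 0.18, 0.17 and 0.14. The effects of VPA in the 2 sets of adult hippocampus, at P84 and at 12 to 13 weeks, differed for none of the 33 genes with limma (0% of all genes tested), and 2 had an unadjusted p under 0.05.

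The running wheel gave no call in the set either. Limma called none of the 33 genes for MC+RW against MC in hippocampus (0% of all genes tested) or cortex (0.0147%), nor for VPA+RW against VPA (0% and 0%). The unadjusted p was under 0.05 for 4 and 5 genes in the first pair and for 5 and 3 in the second. The difference of the running effects between VPA and MC offspring was called for none of the 33 in hippocampus (0%) or cortex (0%), with an unadjusted p under 0.05 for 2 and 4. The lowest value for Mvk with running in hippocampus came from 1 array, which read 46.7 where the other MC+RW arrays read 227 and 282. The difference of Mvk was -0.80 with that array and 0.01 without it.

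The largest differences in the set lay between ages. Between the vehicle groups of E14.5 telencephalon and E18.5 forebrain, 19 of the 33 genes rose and 4 fell, where 54.1% of all genes tested were called, 30.2% higher. The 17 sterol enzymes were all above 0, 12 of them rose, and their median was 0.42, beside 0.05 for all genes tested. Scd1 read 630.0, 485 and 489 at E14.5 and 1239, 1277 and 1163 at E18.5, a rise of 1.21 (95% interval 1.00 to 1.42, adjusted p = 8.14e-09). Fasn read 3105, 3424 and 3310.3 and then 5425, 5724 and 5465, a rise of 0.76 (adjusted p = 3.12e-09). Lss rose by 0.96 (adjusted p = 3.61e-07), but its other probe set gave 0.02. Mvd rose by 0.86 (adjusted p = 6.92e-07), and Cyp51, the lanosterol demethylase, by 0.67 (adjusted p = 4.56e-07). Acly read 7859, 8032 and 8100.4 and then 5109, 4926 and 5225, and fell by 0.65 on the log2 scale (adjusted p = 8.19e-09), and Srebf1 fell by 0.44 (adjusted p = 0.00887). Neither call held in the values as deposited, and that of Acly was also lost with its second probe set, which gave -0.0069 (adjusted p = 0.958). Fdft1 rose by 0.42, but its other probe sets disagreed, at 0.27, -0.43 and -0.15. The smaller calls of Elovl5 (-0.15), Fads1 (-0.13) and Scd2 (0.19) also had other probe sets of the opposite sign. Elovl5 and Fads1 lay above 0 in the values as deposited (0.29 and 0.31), and the tissue taken differed between the ages as well. The calls of Elovl5, Fads1 and Scd2 were lost without any 1 of 4 to 6 of the 6 arrays (adjusted p at most 0.133). That of Fads2 was lost without E14.5 MC replicate 1 or E18.5 MC replicate 2 (at most 0.0984), and that of Acaca without E18.5 MC replicate 1 (adjusted p = 0.0566). Without the E18.5 replicates 3, 18 genes rose and 2 fell. Markers of other cells differed between the same arrays: from E14.5 to E18.5 the summed progenitor markers went from 37567 to 38236 down to 15976 to 17304, the oligodendrocyte precursor markers from 590 to 983 up to 4552 to 5187, the choroid plexus markers from 264 to 342 up to 17848 to 25545, and the red cell markers from 10812 to 12770 down to 388 to 515. Their part was not tested.

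From E18.5 to P84 in hippocampus the direction was the reverse for most of the pathway. Of the 33 genes, 24 fell and 5 rose, where 82.8% of all genes tested were called, 37.7% lower and 45.2% higher. The median of the set was -0.76 and that of the 17 sterol enzymes -1.34, beside 0.13 over all genes tested, and 14 of the 17 fell and 1 rose. Fdps read 9586, 8607 and 8479 at E18.5 and 1059, 966, 873 and 973 at P84. This was 9.20-fold lower, a difference of -3.20 (95% interval -3.34 to -3.06, adjusted p = 2.23e-18). Mvd went from 1306, 1099 and 1268 to 209, 227, 221 and 223, a difference of -2.47 (adjusted p = 1.09e-14). Sqle went from 6806, 6630.3 and 6981 to 1378, 1373, 1433 and 1478, a difference of -2.27 (adjusted p = 2.91e-18). In each of these genes the lowest E18.5 array lay several times above the highest P84 array. Fdft1, squalene synthase, also fell, with a difference of -2.06, as did Idi1 (-2.05), Cyp51 (-1.95), Mvk (-1.69) and Hmgcs1 (-1.62), with adjusted p of at most 1.65e-09. Of the other 3 probe sets of Fdft1, 1 gave -2.74 and 2 went the opposite way, at 1.45 and 0.72, and the other probe set of Idi1 gave -0.50. Without the E18.5 replicates 3, 28 of the 33 genes were called, 23 lower and 5 higher. Fatty acid synthesis fell with them at Acaca, with -1.65 (adjusted p = 4.27e-13), and Fasn, with -1.32 (adjusted p = 4.7e-14).

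The 5 genes that rose were Acss2, Scd1, Insig2, Fads1 and Hsd17b7. Acss2 went from 646, 530.1 and 537 at E18.5 to 1311, 1165, 1201 and 1236 at P84, a rise of 1.11 (adjusted p = 7.35e-10). Scd1 went from 1185, 1080.4 and 1404 to 2464, 2499, 2443 and 2793, a rise of 1.07 (adjusted p = 3.99e-09). For both, every P84 array was above every E18.5 array. Insig2 rose by 0.74 (adjusted p = 3.27e-09), Fads1, the delta-5 desaturase, by 0.47 (adjusted p = 2.73e-08), and Hsd17b7 by 0.28 (adjusted p = 0.0128). The call of Hsd17b7 was lost without E18.5 MC replicate 1 (adjusted p = 0.104), and its second probe set gave -0.69. Scd2 at 0.03 (adjusted p = 0.633), Ebp at 0.07 (adjusted p = 0.491), Sc5d at -0.16 (adjusted p = 0.059) and Srebf1 at -0.24 (adjusted p = 0.0826) were not called. In the values as deposited, Elovl5 and Srebf2, which had fallen by 0.31 and by 0.27, lay above 0, at 0.14 and 0.19. In the list of sterol turnover and LXR, 8 of 11 genes rose and 2 fell, with a median of 1.17. Cyp46a1, the neuronal enzyme that hydroxylates cholesterol for export from the brain, rose by 3.19 (adjusted p = 2.9e-16), Abcg1, a sterol exporter, by 1.65 (adjusted p = 1.63e-13), and Npc2, which hands cholesterol out of lysosomes, differed by -2.53 (adjusted p = 2.67e-16). Of 18 genes of other lipid synthesis tested, 8 rose and 8 fell.

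Cortex was compared over arrays that the hippocampal comparison did not use, but in the same fit of the vehicle groups. The 2 comparisons therefore share each gene's estimate of the spread. The labels do not state whether E18.5 hippocampus and forebrain arrays are paired. Between E18.5 forebrain and adult cortex, 21 of the 33 genes fell and 5 rose, where 80.9% of all genes tested were called, 36.1% lower, and the 17 sterol enzymes had a median of -1.27, with 14 that fell and 1 that rose. Fdps went from 8631, 8148 and 9060.2 in forebrain to 1429, 1352 and 1378 in adult cortex, a difference of -2.63 (adjusted p = 1.21e-16). Mvd differed by -2.04 (adjusted p = 7.75e-13), Sqle by -1.89 (adjusted p = 1.34e-16) and Fdft1 by -1.81 (adjusted p = 5.09e-15). The other probe sets of Fdft1 gave -1.98, 1.82 and 0.91, and its call was lost with the mean over them all (adjusted p = 0.173). The call of Idi1 was lost with its second probe set, at -0.12. The genes that rose were Scd1 at 1.62 (adjusted p = 2.47e-11), Acss2 at 1.05 (adjusted p = 5.16e-09), Hsd17b7 at 0.68 (adjusted p = 6.44e-06), Insig2 at 0.34 (adjusted p = 0.000198) and Fads1 at 0.28 (adjusted p = 5.15e-05). The second probe set of Hsd17b7 gave -0.30, and the call of Insig1, at -0.23, was lost without adult cortex MC replicate 3 (adjusted p = 0.054). In the list of sterol turnover and LXR, 8 genes rose and 1 fell, with a median of 0.89, and Cyp46a1 rose by 3.47 (adjusted p = 3.95e-16). Without the E18.5 replicates 3 the counts were 21 and 5 again.

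Markers of several cell types changed with age in the same arrays. The 10 of 11 myelin markers measured summed to 1425 to 1856 in E18.5 hippocampus and 37991 to 48168 at P84, and to 1657 to 1792 in E18.5 forebrain and 37776 to 42252 in adult cortex. The progenitor markers went from 20557 to 22503 in E18.5 hippocampus to 3698 to 4521 at P84, and from 15976 to 17304 in forebrain to 3910 to 4382 in adult cortex. The astrocyte markers summed to 17481 to 19251 and 43753 to 50870 in hippocampus, and to 10988 to 12236 and 36469 to 42771 in forebrain and cortex. The microglial markers summed to 2608 to 3011 and 8376 to 9082, and to 1931 to 2205 and 9159 to 9762. Their part in the lipid genes was not tested. Age, and any difference in how the arrays of an age were prepared, cannot be told apart.

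**Figure D4:**
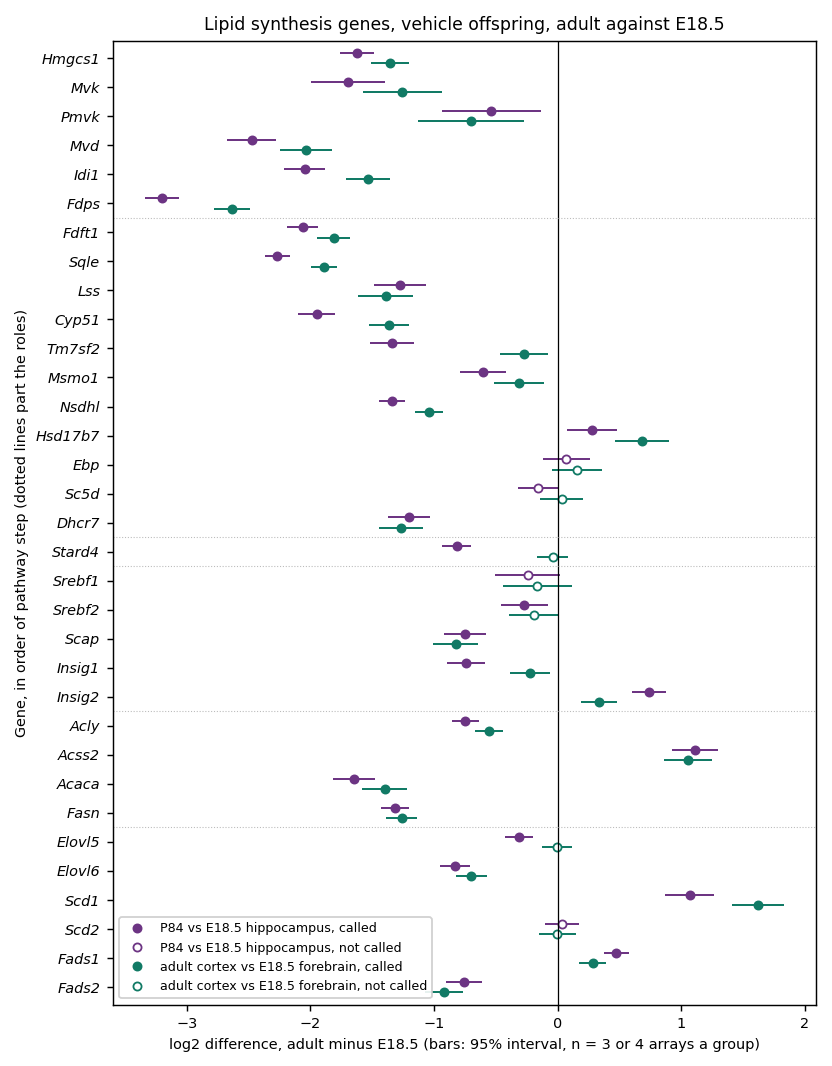
Difference in mean log2 signal between vehicle groups (x axis) for each of the 33 genes (y axis): P84 against E18.5 hippocampus (purple) and adult cortex against E18.5 forebrain (green), with 95% intervals and filled points where called. Fdps lies lowest in both, at -3.20 and -2.63, and Acss2 and Scd1 lie above 1 in both.

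Regions of the same age differed less. Between E18.5 hippocampus and forebrain of vehicle offspring, 7 of the 33 genes were higher in hippocampus and none lower, where 20.6% of all genes tested were called, 9.8% higher. They were Elovl6, which elongates saturated fatty acids, at 0.38 (adjusted p = 0.00018), Tm7sf2, a sterol reductase, at 0.43 (adjusted p = 0.00246), Stard4 at 0.34 (adjusted p = 0.000418), Insig1 at 0.30 (adjusted p = 0.00802), Nsdhl at 0.24 (adjusted p = 0.00339), Elovl5 at 0.19 (adjusted p = 0.0228) and Sqle at 0.15 (adjusted p = 0.0402). The calls of Elovl5 (hippocampus MC replicate 1 or forebrain MC replicate 3) and Sqle (hippocampus 1 or 3, forebrain 1 or 2) were lost without the replicates named, with adjusted p of at most 0.205. Without the replicates 3, 5 of the 33 were called. The fit did not pair hippocampus and forebrain arrays of the same number. The call of Sqle was lost with the replicate number as a block. In the adult, 3 of the 33 were higher in hippocampus than in cortex and 5 were lower, where 16.4% of all genes tested were called. Stard4 read 705, 767 and 727 in hippocampus and 947, 952 and 912 in cortex, a difference of -0.35 (adjusted p = 0.000218), and Insig1 differed by -0.35 (adjusted p = 0.00338), so both were lower in adult hippocampus and higher in that of E18.5. Cyp51, Srebf2 and Fdft1 were lower in adult hippocampus as well, at -0.27 to -0.32, and Acss2, Insig2 and Elovl6 higher, at 0.18 to 0.33. Without hippocampus MC replicate 3 or cortex MC replicate 3, 5 of the 33 were called, and the calls of Acss2, Elovl6, Srebf2 and Insig2 were each lost without 1 array or another, all 4 of them without hippocampus MC replicate 2. None of the 33 was called in either comparison of regions when the values were left as deposited. Cell type markers differed between the regions too. At E18.5 the 7 astrocyte markers summed to 17481 to 19251 in hippocampus and 10988 to 12236 in forebrain. The 5 subpallial markers summed to 4704 to 5360 and 9076 to 11838. In the adult, the 5 pallial markers summed to 9121 to 10406 in hippocampus and 6083 to 6813 in cortex. Their part was not tested.

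**Figure D5:**
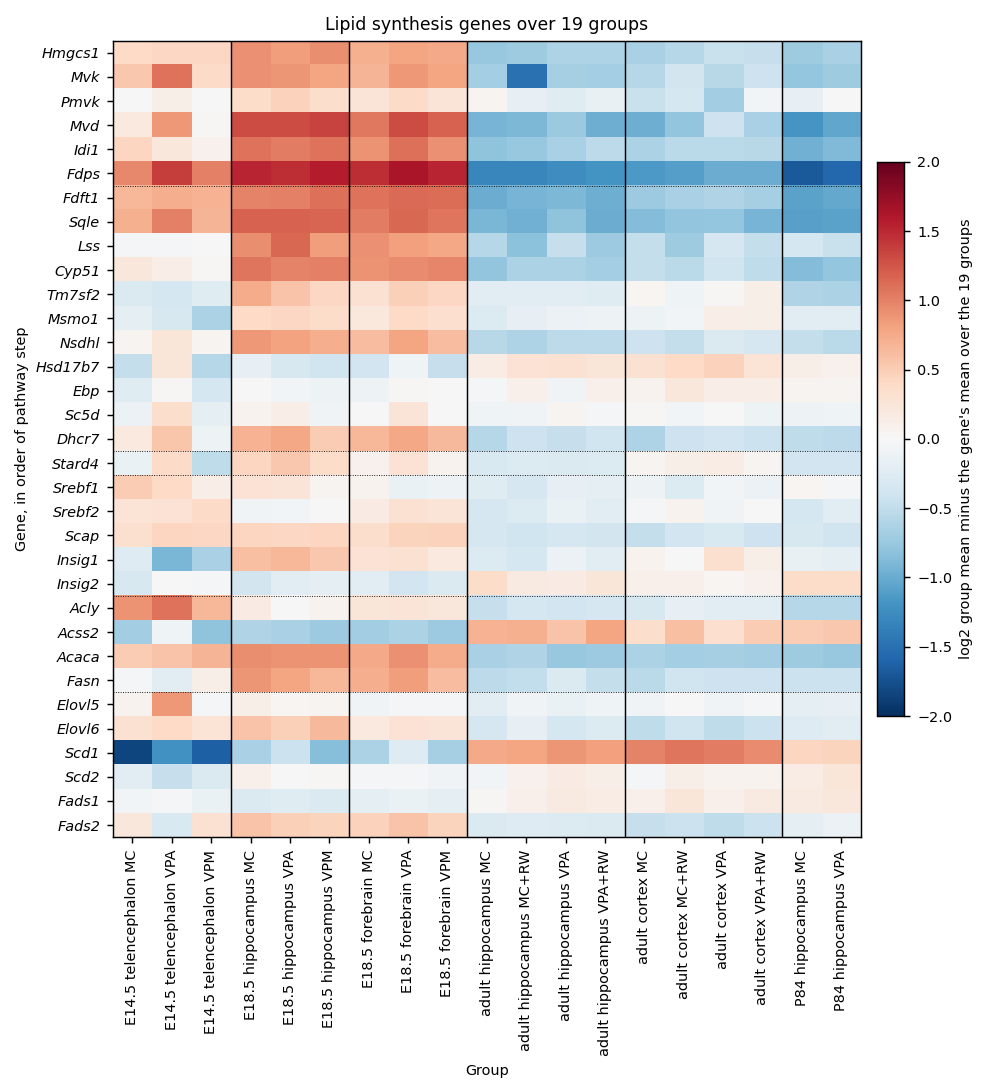
Group mean log2 signal of each of the 33 genes (rows) minus the gene's mean over the 19 groups (columns), on a colour scale from -2 to 2. Most sterol enzymes change between the embryonic and the adult groups, and within an age the MC, VPA and VPM groups look much more alike.

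Over all 19 groups, Fdps had the widest range of group means, with the highest 9.85 times the lowest, followed by Scd1 at 7.47 and Mvd at 5.82. Sc5d and Fads1, both at 1.45, and Ebp at 1.51 varied least. The group with the highest mean was E14.5 VPA telencephalon for 4 genes, at 860.5 for Mvk, 1547 for Sc5d, 9167 for Acly and 5666 for Elovl5, and the lowest mean of Insig1, 652, was in that group too.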

How the data were processed

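RNA of 59 mouse brain samples was hybridised to Affymetrix mouse whole-genome expression arrays, 1 sample an array. The values are linear signal intensities per probe set as deposited by the authors; per the submitters' processing notes they were made with GCOS, while the signal algorithm and its scaling were not given in the sources used here. Of 45101 probe sets, 34958 had 1 gene symbol in the platform annotation, 932 several and 9211 none, and 34754 matched a current gene through the Entrez identifier. Each array was scaled here to a mean of 500 after trimming 2% of probe sets at each end, raised to a floor of 32 and put on a log2 scale. Genes at 100 or more in at least 3 arrays of a fit (4 at P84) were tested.

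Groups came from the sample labels. Each age and tissue was fitted with all its groups, the 6 vehicle groups of the comparisons between ages and regions in 1 further fit, and the differences between VPA effects in fits over both sets, with limma 3.58.1 in R 4.3.3 (lmFit, contrasts.fit and eBayes with an intensity trend). P-values were adjusted by Benjamini-Hochberg over all genes tested. Data were read with the data.table package, version 1.17.8, and tables and plots were made in Python 3.11.15 with pandas 2.3.3, numpy 2.4.6 and matplotlib 3.10.9. The fits were tested on simulated data. The members and the lists of other lipid and marker genes were chosen with earlier results of these data known. All members may be named, those with the smallest adjusted p first, and up to 4 genes a comparison with the smallest adjusted p from the 2 other lipid lists. Alternatives were quantile normalization, values as deposited, log2(signal + 32), no filter, a filter at 200, no intensity trend, the mean over probe sets, the second probe set, only the groups compared, the replicate number as a block, each array left out and, added after seeing the data, the E18.5 arrays numbered 3 left out together.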

Additional observations from a re-analysis of the deposited data

Results flagged for a closer look

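The VPA effect at E18.5 in forebrain differed from that at E14.5 in telencephalon for 15 of the 33 genes, by limma's test of the difference itself, where 39.1% of all genes tested differed. In the values as deposited 1 of the 15 calls held, that of Elovl5. Age, tissue, time since the last dose and any difference in array preparation cannot be told apart here. On the log2 scale the effect was lower at E18.5 for Elovl5 (-0.73), Acss2 (-0.55), Insig2 (-0.47), Mvd (-0.43), Hsd17b7 (-0.43), Mvk (-0.36), Stard4 (-0.31), Fdps (-0.27), Dhcr7 (-0.24) and Acly (-0.18). It was higher for Insig1 (0.67), Fads2 (0.65), Idi1 (0.42), Fasn (0.29) and Scd2 (0.25).

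Single arrays stood apart from the other 3 of their group in 3 of the 66 groups of 4 arrays examined at P84, 1 gene in MC or VPA offspring counting as a group, and chance alone would mark about 1 in 20. Fdft1 was lowest at 1310.5 in a VPA array, Ebp was lowest at 605 in an MC array, and Scd1 was highest at 2793 in an MC array.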

How the results depend on the processing

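The scaling mattered most. With the values as deposited, the median of all genes moved by 0.31 (E18.5 forebrain against E14.5), -0.17 (E18.5 hippocampus against forebrain), 0.44 (P84 against E18.5 hippocampus), 0.18 (adult cortex against E18.5 forebrain), 0.16 (VPA in E18.5 hippocampus) and -0.18 (VPA at P84), and quantile normalization moved it by -0.15 in both comparisons of adult with E18.5. The share of all calls that were higher became 91.2% (from 55.8%), 13.1% (from 47.6%), 74.6% (from 54.5%) and 65.6% (from 55.4%) in the first 4 of these, 33.6% (from 47.1%) between adult regions and 4.2% (from 50.8%) for VPA in E18.5 forebrain. For VPM at E14.5, 1 member was called, none of the original 4. Called members became 0 (from 2) for VPA in E18.5 forebrain, 0 in both comparisons of regions and 1 (from 15) for the difference of VPA effects. For VPM at E14.5, 1 member was called without the filter and 2 without the trend. For VPA in E18.5 forebrain it was 1 without the filter, 0 without the trend, 1 with the mean over probe sets and 1 with only the groups compared. Adult regions gave 5 with only their own arrays. Leaving out 1 array gave 16 to 19 (VPA at E14.5), 2 to 4 (VPM), 15 to 20 (VPA against VPM), 0 to 1 (VPA in E18.5 forebrain), 19 to 21 (E18.5 against E14.5), 5 to 7 (E18.5 regions), 28 to 30 (P84 against E18.5), 26 to 28 (adult cortex against E18.5), 5 to 9 (adult regions) and 10 to 14 members (difference of effects), and 0 in every other comparison.

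Signs turned for some genes. As deposited, Elovl5 was 0.29 (E18.5 against E14.5), -0.0156 (E18.5 regions) and 0.14 (P84 against E18.5), Fads1 0.31 (E18.5 against E14.5), Sqle -0.0582 (E18.5 regions) and Srebf2 0.19 (P84 against E18.5). With the mean over probe sets, E18.5 against E14.5 gave 0.14 for Elovl5, 0.0105 for Fads1 and -0.10 for Scd2, and P84 against E18.5 gave 0.0039 for Scap. The second probe set gave 0.42 for Elovl5, 0.15 for Fads1 and -0.24 for Scd2 between E18.5 and E14.5, and -0.69 (P84) and -0.30 (adult cortex) for Hsd17b7 against E18.5. For Mvk it gave -0.0084 (VPA against MC), -0.0004 (VPA against VPM) and 0.23 (difference of effects). The cause was not tested. Of 149 calls of a member in a comparison, 91 held as deposited, 140 with quantile normalization, 122 with the mean over probe sets and 149 with a filter at 200. Same-numbered arrays of a set deviated together at correlations of -0.283 to 0.383, where arrays of other numbers had -0.413 to 0.338. Same-numbered arrays of E18.5 vehicle hippocampus and forebrain had 0.051 to 0.167, all above those of other numbers, at -0.112 to 0.047. Over all E18.5 groups the ranges overlapped, at -0.05 to 0.179 and -0.172 to 0.163. The labels do not state pairs, and the fit of the regions used none. Replicate 3 was dimmest in 6 of 6 E18.5 groups. Without those arrays 0 members were called for VPA in E18.5 forebrain. With the replicate block 146 of the 149 calls held and 1 member was called between VPA and VPM in E18.5 forebrain, where none was without it; the block in the vehicle fit was added after seeing the data.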
